A study of Mus musculus with 8 samples.

Results

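The regions described here are a pair of 30 kb windows in the gene desert between Kcnj2 and Sox9 on mouse chromosome 11, chr11:111750001-111780000 and chr11:112050001-112080000 (mm9), called the 111.76 Mb site and the 112.06 Mb site. They were selected on the insulation score, the mean contact across a position, which stepped there between libraries of a deletion series, at the 111.76 Mb site between ∆BorC1-2 and ∆BorC1 and at the 112.06 Mb site between ∆BorC1-4 and ∆BorC1-2. They make up 6 of the 587 bins of 10 kb in each map, 3 bins per site. The scores used KR contacts in a 200 kb window. On the log2 scale they were -0.20 in ∆BorC1, 0.01 in ∆BorC1-2 and -0.03 in ∆BorC1-4, with ∆CTCF at -0.06 at the 111.76 Mb site. At the 112.06 Mb site they were -0.25 in ∆BorC1, -0.36 in ∆BorC1-2 and -0.10 in ∆BorC1-4, with ∆CTCF at -0.19. Contacts of the 111.76 Mb site in ∆BorC1-2 over ∆BorC1, and of the 112.06 Mb site in ∆BorC1-4 over ∆BorC1-2, come from the contrasts that chose the sites, and are given as a description only. Other contrasts that include ∆BorC1, ∆BorC1-2 or ∆BorC1-4 share a library with these.

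Contacts were measured by capture Hi-C (DpnII-cut, ligated chromatin enriched for the locus) in limb buds of E12.5 mouse embryos, and each library pooled the limb buds of 3 to 8 homozygous embryos made from G4 embryonic stem cells. There were 8 genotypes with 1 library each. By their labels, BorKnockIn carries a knocked-in boundary, InvC∆Bor an inversion with the boundary deleted, and InvIntra and InvC an inversion. ∆BorC1, ∆BorC1-2 and ∆BorC1-4 are named for the loss of the boundary and of elements C1, C1 to C2 and C1 to C4, and ∆CTCF for the loss of CTCF sites. The labels give neither the positions of C1 to C4 nor whether ∆CTCF also lacks what ∆BorC1-4 lacks. The wildtype library and the remaining mutant of the study were not analysed here.

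Sox9 encodes a transcription factor that limb cells need to form cartilage, and its regulatory elements lie in the large desert beside it. Kcnj2 encodes an inward rectifier potassium channel and lies in the neighbouring domain. Such domains, called TADs, are stretches of chromosome that contact themselves more than their surroundings. The protein CTCF binds at many of their boundaries and at sites within them, where it can halt the cohesin complex as that complex extrudes a loop of DNA. Pairs of CTCF sites that point toward each other tend to be the ones that contact each other most.

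The maps held 3056502 raw contacts in InvC∆Bor, the shallowest library, to 9045698 in ∆BorC1-4, the deepest. A contact level is the raw number of read pairs between windows of 30 kb over the number expected from that library's own mean at the same distances, so a level of 1 is the average for the distance. KR levels are the same ratio from the authors' balanced values. The windows of both sites drew 1.351 to 1.499 times the contacts of a median bin, and raw levels were above KR levels for each pair of the sites with Sox9, Kcnj2 and each other in all 8 libraries. The intervals are exact Poisson intervals for levels, log-normal ones for ratios and exact Clopper-Pearson ones for shares, all at 95% and for counting error only, with read pairs taken as independent. With 1 library per genotype no test between genotypes was possible, and the spread between embryos was not measured.

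In InvC, InvC∆Bor and InvIntra the sequence of the sites lies in inverted order, and in BorKnockIn it is shifted by 19 kb, so the matching sequence was followed in each map. The centre bin of the 111.76 Mb site starts at 111.74 Mb in BorKnockIn, 112.13 Mb in InvC∆Bor, 112.15 Mb in InvIntra and 112.13 Mb in InvC. That of the 112.06 Mb site starts at 112.04 Mb in BorKnockIn, 111.83 Mb in InvC∆Bor, 111.85 Mb in InvIntra and 111.83 Mb in InvC. In these inverted maps the 112.06 Mb site is thus the farther of the pair from Sox9. The bin of Sox9, 112640001 to 112650000, and that of Kcnj2, 110920001 to 110930000, rest on general knowledge of mm9, since the files name no genes. In the RefSeq gene order (assembly GRCm38) the protein-coding model Gm11677 is the only one between Kcnj2 and Sox9. No mm9 annotation was used, so the exons or introns that the sites may overlap are not given.

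The 111.76 Mb site was in contact with Sox9 above the average for the distance in 7 of the 8 libraries, and most so in ∆BorC1. Its level was 2.09 in BorKnockIn, 1.94 in InvC∆Bor, 2.05 in InvIntra, 0.830 in InvC, 4.72 in ∆BorC1, 2.85 in ∆BorC1-2 and 3.02 in ∆BorC1-4, with ∆CTCF at 3.11. ∆BorC1 therefore stands alone at the top with an interval of 4.38 to 5.08, and InvC alone at the bottom with 0.727 to 0.943. ∆BorC1-2, ∆BorC1-4 and ∆CTCF have overlapping intervals, as do BorKnockIn, InvC∆Bor and InvIntra. The KR levels were 1.56 in BorKnockIn, 1.51 in InvC∆Bor, 1.48 in InvIntra, 0.643 in InvC, 3.56 in ∆BorC1, 2.16 in ∆BorC1-2 and 2.19 in ∆BorC1-4, with ∆CTCF at 2.39.

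For its part, the 112.06 Mb site held its high level of contact with Sox9 in ∆BorC1-2 and was lower in ∆BorC1-4. Its level was 1.32 in BorKnockIn, 2.79 in InvC∆Bor, 2.73 in InvIntra, 1.21 in InvC, 3.58 in ∆BorC1, 3.84 in ∆BorC1-2 and 2.39 in ∆BorC1-4, with ∆CTCF at 2.61. ∆BorC1 and ∆BorC1-2 lead with overlapping intervals, 3.34 to 3.83 and 3.62 to 4.07. BorKnockIn and InvC are lowest, and their intervals overlap as well. The KR levels were 0.950 in BorKnockIn, 2.15 in InvC∆Bor, 2.03 in InvIntra, 0.928 in InvC, 2.64 in ∆BorC1, 2.91 in ∆BorC1-2 and 1.83 in ∆BorC1-4, with ∆CTCF at 2.05.

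Of the 5 pairs of the sites with Sox9, Kcnj2 and each other, some were at least 2 times the expected contact in every library. In BorKnockIn it was 1 of 5, where 6.72% of all window pairs 200 kb to 2 Mb apart reached that level. It was 3 of 5 in InvC∆Bor (9.8%), 2 of 5 in InvIntra (6.49%), 2 of 5 in InvC (8.64%), 4 of 5 in ∆BorC1 (10.5%), 3 of 5 in ∆BorC1-2 (10.1%), 3 of 5 in ∆BorC1-4 (9.9%) and 4 of 5 in ∆CTCF (10.9%). By KR values the counts were 0 in BorKnockIn, 2 in InvC∆Bor, 1 in InvIntra, 2 in InvC, 2 in ∆BorC1, 3 in ∆BorC1-2 and 1 in ∆BorC1-4, with 2 in ∆CTCF. The median raw level of 93 desert windows was 2.75 with Sox9 and 2.04 with Kcnj2 in ∆BorC1, and 2.77 and 2.42 in ∆BorC1-2. It was 2.63 and 2.14 in ∆BorC1-4, and 2.62 and 2.73 in ∆CTCF. In BorKnockIn it was 1.40 and 1.62, in InvC∆Bor 2.04 and 2.55, in InvIntra 2.10 and 1.15, and in InvC 1.01 and 2.54. Where that median was above 2, such a level was not particular to the sites.

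**Figure D1:**
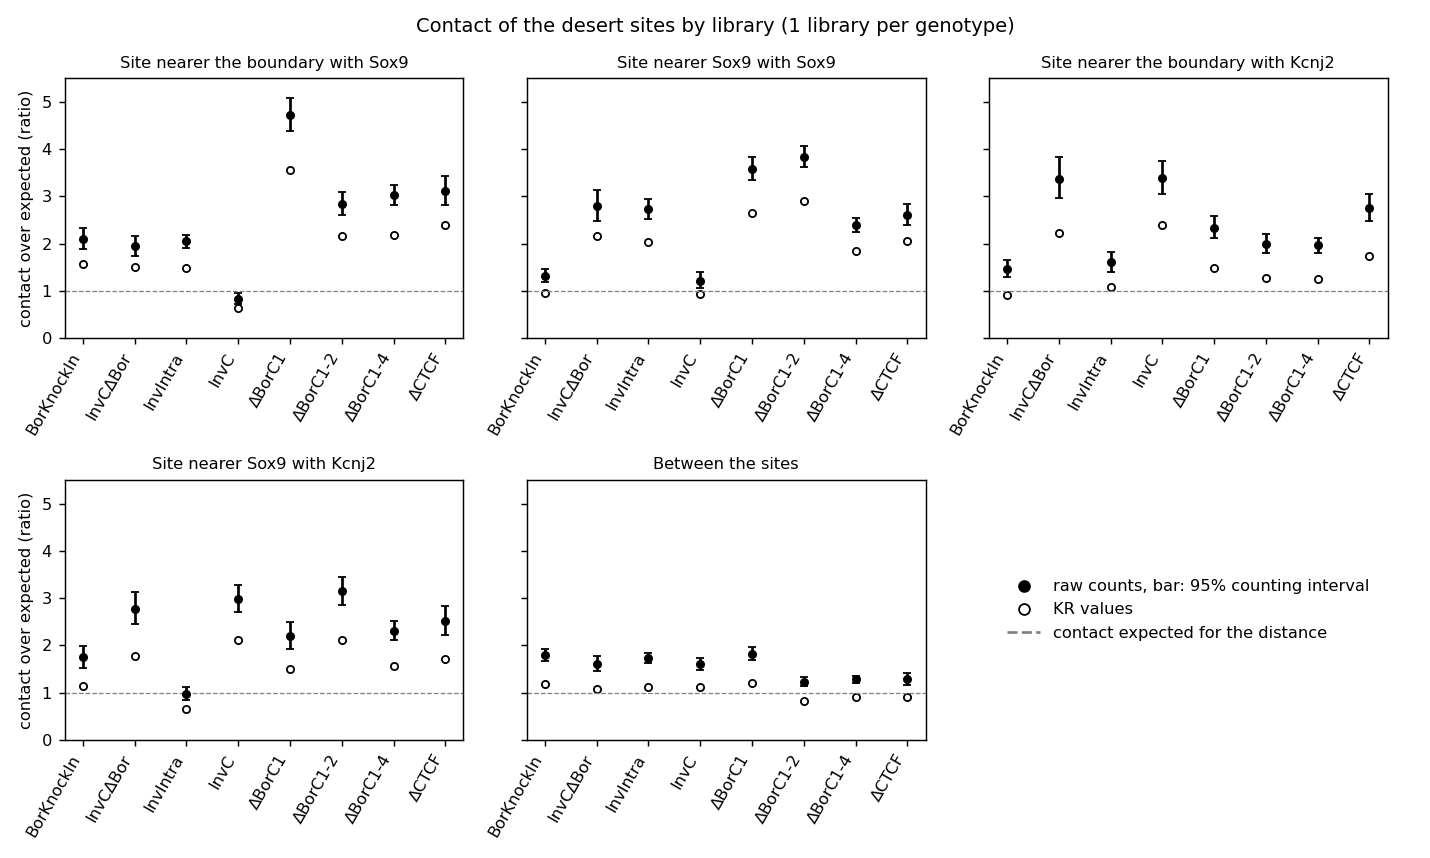
Contact over expected (a ratio, vertical axis) of the sites with Sox9, with Kcnj2 and with each other in each of the 8 libraries, with filled points for raw counts, bars for their 95% counting interval and open points for KR values; the 111.76 Mb site is the site nearer the boundary and the 112.06 Mb site the site nearer Sox9 in the uninverted order. The highest point of all is the 111.76 Mb site with Sox9 in ∆BorC1, at 4.72, and the contact between the sites varies least, from 1.23 to 1.82.

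Along the deletion series the contact of each site with Sox9 was lower at the step that chose the site, which is a description only. For the 111.76 Mb site, 551 contacts were counted with Sox9 in ∆BorC1-2 against 728 in the shallower ∆BorC1 library, and the ratio of the levels was 0.604 (0.540 to 0.674). The next steps gave 1.06 (0.954 to 1.18) for ∆BorC1-4 over ∆BorC1-2 and 1.03 (0.916 to 1.16) for ∆CTCF over ∆BorC1-4, both with intervals that include 1. With 10 kb windows these steps gave 0.906 and 0.776. For the 112.06 Mb site the ratio was 1.07 (0.983 to 1.17) in ∆BorC1-2 over ∆BorC1, though 1.60 with 10 kb windows. With 30 kb windows it was 0.622 (0.572 to 0.676) for ∆BorC1-4 over ∆BorC1-2, from 1067 contacts in ∆BorC1-4 and 1163 in ∆BorC1-2. For ∆CTCF over ∆BorC1-4 it was 1.09 (0.984 to 1.21).

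These values were set beside all pairs of 30 kb windows that lie 200 kb to 2 Mb apart on matched sequence. Of the 5 pairs formed by the sites with Sox9, Kcnj2 and each other, 1 was at least 1.5 times lower in ∆BorC1-2 than in ∆BorC1 and none higher, where 1.48% of all window pairs were lower and 1.07% higher. In ∆BorC1-4 over ∆BorC1-2 it was again 1 of 5 lower and none higher, with 0.561% of all window pairs lower and 0.983% higher. Those contrasts chose the sites. In ∆CTCF over ∆BorC1-4 none of the 5 passed 1.5 times in either direction, with 0.77% of all pairs higher and 2.6% lower. Among 526 window pairs that join the desert to the stretch from Sox9 to the far edge of its domain, the median ratio was 0.895 for ∆BorC1-2 over ∆BorC1, with 0.728 as the 5th percentile, and 1.03 for ∆BorC1-4 over ∆BorC1-2, with 0.848 as the 5th percentile.

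Before its step each site was above the median of its flanking windows in contact with Sox9, and after it near or below that median. In KR values the 111.76 Mb site was 1st of 93 desert windows by contact with Sox9 in ∆BorC1. It was 59th in ∆BorC1-2, 48th in ∆BorC1-4 and 42nd in ∆CTCF. By raw level it was 1st in ∆BorC1, 43rd in ∆BorC1-2, 31st in ∆BorC1-4 and 25th in ∆CTCF. Its raw level stood at 0.8802 times the median of the windows 60 and 90 kb to either side in ∆BorC1-2, against 1.42 times in ∆BorC1. By KR values the 112.06 Mb site was 21st of 93 in ∆BorC1, 5th in ∆BorC1-2 and 60th in ∆BorC1-4, and 60th again in ∆CTCF. Its raw level was 1.37 times its flanking windows in ∆BorC1, 1.35 times in ∆BorC1-2 and 0.957 times in ∆BorC1-4, with ∆CTCF at 1.05 times. In ∆BorC1 the highest of its flanking windows, at 3.76, was above the site itself. Sox9 contact was highest in the desert at 111.82 Mb in ∆BorC1-2, with a KR level of 3.02, at 111.56 Mb in ∆BorC1-4 with 2.94, and at 111.69 Mb in ∆CTCF with 3.11.

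**Figure D2:**
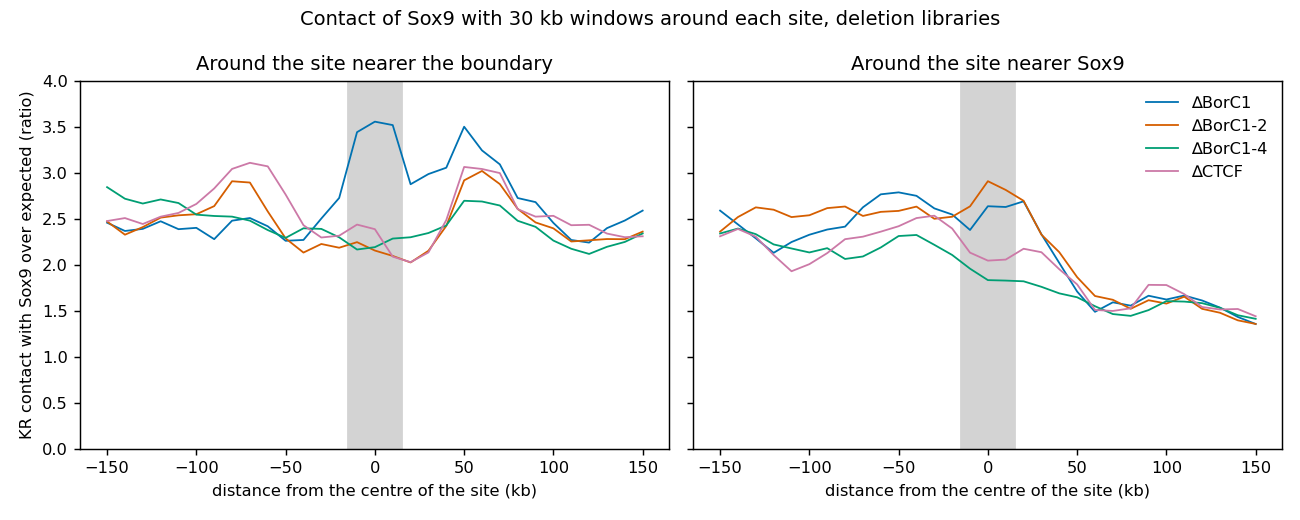
KR contact of Sox9 over expected (a ratio, vertical axis) with 30 kb windows by distance in kb from the centre of each site, 1 line per deletion library, with the site window shaded. At the 111.76 Mb site (left) only the ∆BorC1 line, at 3.56, has a peak inside the shaded window, and at the 112.06 Mb site (right) ∆BorC1-2 is highest there at 2.91 and ∆BorC1-4 lowest at 1.83.

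Within the sites the difference was largest in single 10 kb bins. The central bin of the 111.76 Mb site, 111760001 to 111770000, had a KR level with Sox9 of 2.25 in ∆BorC1-2, against 4.55 in ∆BorC1. Its neighbours on the left and right had 2.16 and 2.06 in ∆BorC1-2, against 3.14 and 2.99 in ∆BorC1. At the 112.06 Mb site the highest bin in both ∆BorC1 and ∆BorC1-2 was the right one, 112070001 to 112080000, with KR levels of 3.16 and 3.28. That bin had 1.80 in ∆BorC1-4 and 2.16 in ∆CTCF. These levels by bin were taken with the 30 kb window of Sox9. A raw ratio was also counted in central bins alone, with 10 kb windows for both the site and Sox9. For the 111.76 Mb site it was 0.435 in ∆BorC1-2 over ∆BorC1, and for the 112.06 Mb site 0.496 in ∆BorC1-4 over ∆BorC1-2.

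At the step that chose each site, the lower contact extended over the side that faces Sox9, with little difference over the side that faces Kcnj2. For the 111.76 Mb site, 39 of 41 windows between the site and the far edge of the Sox9 domain were lower in ∆BorC1-2 than in ∆BorC1, and the ratio of the summed levels was 0.785 (0.7708 to 0.8000). On the Kcnj2 side 15 of 27 windows were lower, with a ratio of 0.991 (0.967 to 1.01). For the 112.06 Mb site, 26 of 31 windows on the Sox9 side were lower in ∆BorC1-4 than in ∆BorC1-2, with a ratio of 0.901 (0.886 to 0.916), while the Kcnj2 side gave 0.984 (0.966 to 1.00) with 23 of 37 windows lower. Smaller differences on the Sox9 side were also seen at other steps. The ratio was 0.957 (0.939 to 0.975), with 22 of 31 windows lower, for the 112.06 Mb site in ∆BorC1-2 over ∆BorC1. It was 1.09 (1.07 to 1.11) in ∆BorC1-4 over ∆BorC1-2 and 0.941 (0.923 to 0.958), with 34 of 41 windows lower, in ∆CTCF over ∆BorC1-4 for the 111.76 Mb site. These windows are neighbours in the same libraries and the first contrasts are those of the rule, so the counts describe the shape of the change.

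**Figure D3:**
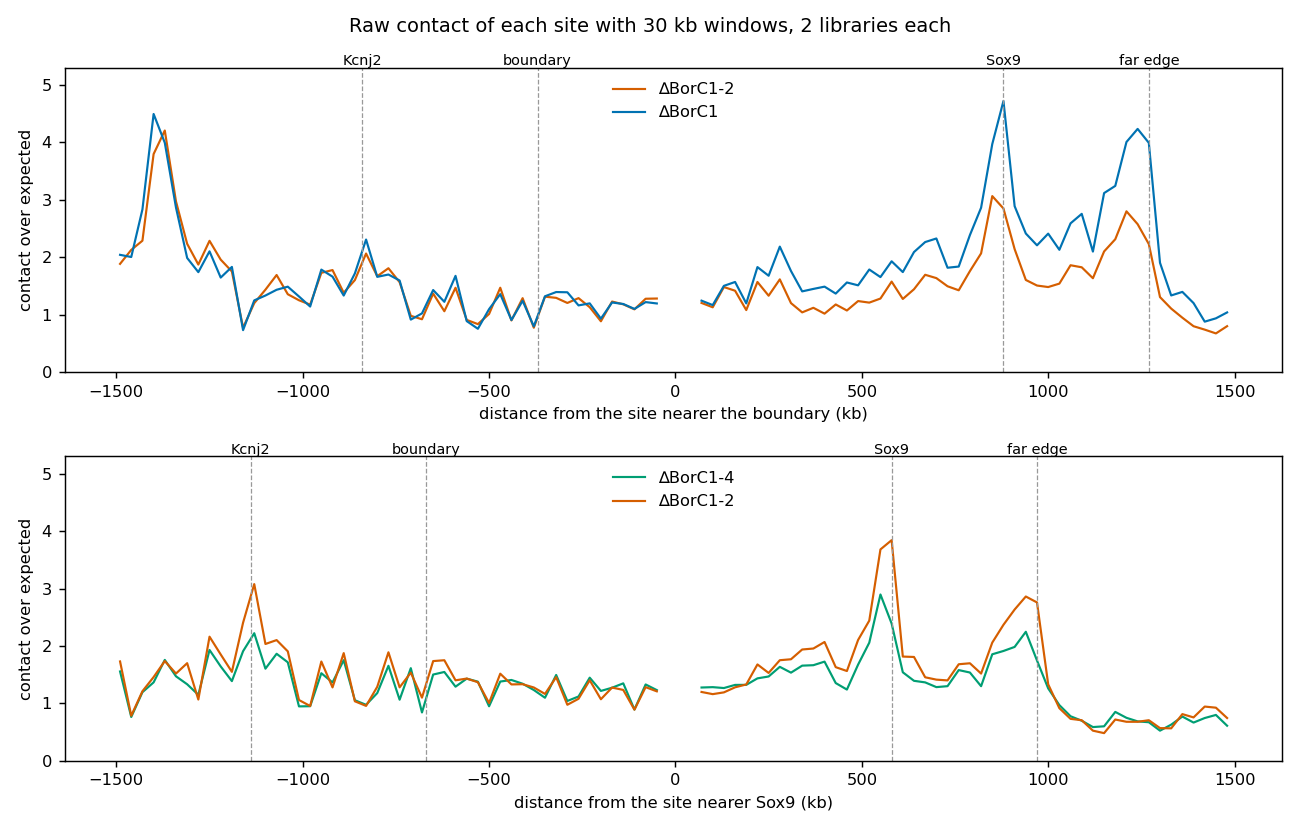
Raw contact over expected (a ratio, vertical axis) of each site with 30 kb windows by distance from the site in kb, with dashed lines at Kcnj2, the boundary, Sox9 and the far edge of the Sox9 domain; top, the 111.76 Mb site in ∆BorC1-2 and ∆BorC1; bottom, the 112.06 Mb site in ∆BorC1-4 and ∆BorC1-2. The lines lie on each other to the left of the upper site and part to its right, with the widest gaps at Sox9 (2.85 in ∆BorC1-2 and 4.72 in ∆BorC1) and at the far edge (2.23 in ∆BorC1-2 and 3.99 in ∆BorC1).

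The far edge of the Sox9 domain, at 113.03 Mb, behaved like Sox9 as a partner of the sites along the series. The 111.76 Mb site had a level with it of 3.99 in ∆BorC1, 2.23 in ∆BorC1-2 and 2.39 in ∆BorC1-4, with ∆CTCF at 2.47. With it the 112.06 Mb site had 2.76 in ∆BorC1, 2.76 in ∆BorC1-2 and 1.75 in ∆BorC1-4, with ∆CTCF at 2.15. Sox9 itself had a level with that edge of 2.47 in ∆BorC1, 2.39 in ∆BorC1-2 and 2.29 in ∆BorC1-4, with ∆CTCF at 2.54, so this pair varied less than those of the sites. At the last step the 112.06 Mb site was 1.23 times higher at the edge in ∆CTCF than in ∆BorC1-4 (1.06 to 1.43). This contrast did not choose the site, but it shares ∆BorC1-4 with the contrast that did, so it is not independent of the choice.

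In raw counts both sites contacted Kcnj2 above the average for the distance, except the 112.06 Mb site in InvIntra. Contacts with Kcnj2 followed another order of libraries than those with Sox9. The 111.76 Mb site had a level with Kcnj2 of 1.47 in BorKnockIn, 3.38 in InvC∆Bor, 1.60 in InvIntra, 3.39 in InvC, 2.34 in ∆BorC1, 1.9999 in ∆BorC1-2 and 1.96 in ∆BorC1-4, with ∆CTCF at 2.75. InvC and InvC∆Bor were highest with nearly the same value, and BorKnockIn and InvIntra lowest with overlapping intervals. The 112.06 Mb site had 1.74 in BorKnockIn, 2.77 in InvC∆Bor, 0.964 in InvIntra, 2.98 in InvC, 2.196 in ∆BorC1, 3.15 in ∆BorC1-2 and 2.31 in ∆BorC1-4, with ∆CTCF at 2.51. For this site ∆BorC1-2 and InvC lead with overlapping intervals, and InvIntra is alone at the bottom with 0.835 to 1.11. The KR levels with Kcnj2 were lower throughout. They were 0.919 in BorKnockIn, 2.23 in InvC∆Bor, 1.08 in InvIntra, 2.40 in InvC, 1.48 in ∆BorC1, 1.27 in ∆BorC1-2 and 1.25 in ∆BorC1-4 for the 111.76 Mb site, with ∆CTCF at 1.74. For the 112.06 Mb site they were 1.13 in BorKnockIn, 1.78 in InvC∆Bor, 0.655 in InvIntra, 2.11 in InvC, 1.49 in ∆BorC1, 2.11 in ∆BorC1-2 and 1.56 in ∆BorC1-4, with ∆CTCF at 1.72.

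Along the deletion series the 112.06 Mb site had its highest Kcnj2 contact in ∆BorC1-2. The ratio was 1.43 (1.23 to 1.67) for ∆BorC1-2 over ∆BorC1, 0.733 (0.646 to 0.832) for ∆BorC1-4 over ∆BorC1-2 and 1.09 (0.939 to 1.26) for ∆CTCF over ∆BorC1-4. The first of these contrasts did not choose this site, but it shares ∆BorC1-2 with the contrast that did. With 10 kb windows its ratio was 1.18. In ∆BorC1-2 this site was 1st of 93 desert windows by KR contact with Kcnj2, at 2.11, and the 111.76 Mb site was 93rd of 93, at 1.27. By raw level with Kcnj2 the 112.06 Mb site was 7th and the 111.76 Mb site 67th. Over the same steps the 111.76 Mb site had ratios with Kcnj2 of 0.854 (0.742 to 0.983), 0.982 (0.865 to 1.11) and 1.40 (1.23 to 1.59). The last, ∆CTCF over ∆BorC1-4, was 1.02 with 10 kb windows. The median raw level of 93 desert windows with Kcnj2 was 2.04 in ∆BorC1, 2.42 in ∆BorC1-2 and 2.14 in ∆BorC1-4, with ∆CTCF at 2.73. It rose and fell at the same steps as the level of the 112.06 Mb site. Like the level of the 111.76 Mb site, it was higher in ∆CTCF than in ∆BorC1-4. Kcnj2 and Sox9 themselves had levels of 4.67 in ∆BorC1, 6.11 in ∆BorC1-2 and 5.75 in ∆BorC1-4, with ∆CTCF at 7.51, and were likewise 1.31 times higher in ∆CTCF than in ∆BorC1-4 (1.17 to 1.46).

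Toward the boundary on the Kcnj2 side, contact was weak in the deletion series. With the place at 111.31 Mb, left of the boundary, the 111.76 Mb site had a level of 1.12 in ∆BorC1, 1.13 in ∆BorC1-2 and 1.10 in ∆BorC1-4, with ∆CTCF at 0.858. There the 112.06 Mb site had 1.36 in ∆BorC1, 1.47 in ∆BorC1-2 and 1.30 in ∆BorC1-4, with ∆CTCF at 1.10. The ratio of ∆CTCF over ∆BorC1-4 was 0.777 (0.666 to 0.907) for the 111.76 Mb site and 0.845 (0.709 to 1.01) for the 112.06 Mb site.

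The sites lie 0.3 Mb apart and were little above the average contact with each other. Their level was 1.79 in BorKnockIn, 1.60 in InvC∆Bor, 1.73 in InvIntra, 1.60 in InvC, 1.82 in ∆BorC1, 1.23 in ∆BorC1-2 and 1.28 in ∆BorC1-4, with ∆CTCF at 1.28. The KR levels were 1.18 in BorKnockIn, 1.08 in InvC∆Bor, 1.12 in InvIntra, 1.13 in InvC, 1.19 in ∆BorC1, 0.825 in ∆BorC1-2 and 0.896 in ∆BorC1-4, with ∆CTCF at 0.908, so for the last 3 the raw and KR levels fall on opposite sides of 1. The ratio was 0.675 (0.606 to 0.753) for ∆BorC1-2 over ∆BorC1, and the following steps gave 1.04 (0.941 to 1.15) and 1.00 (0.898 to 1.12). In the rearranged libraries the contact between the sites stayed at 1.60 to 1.79, whichever way the desert was turned.

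**Figure D4:**
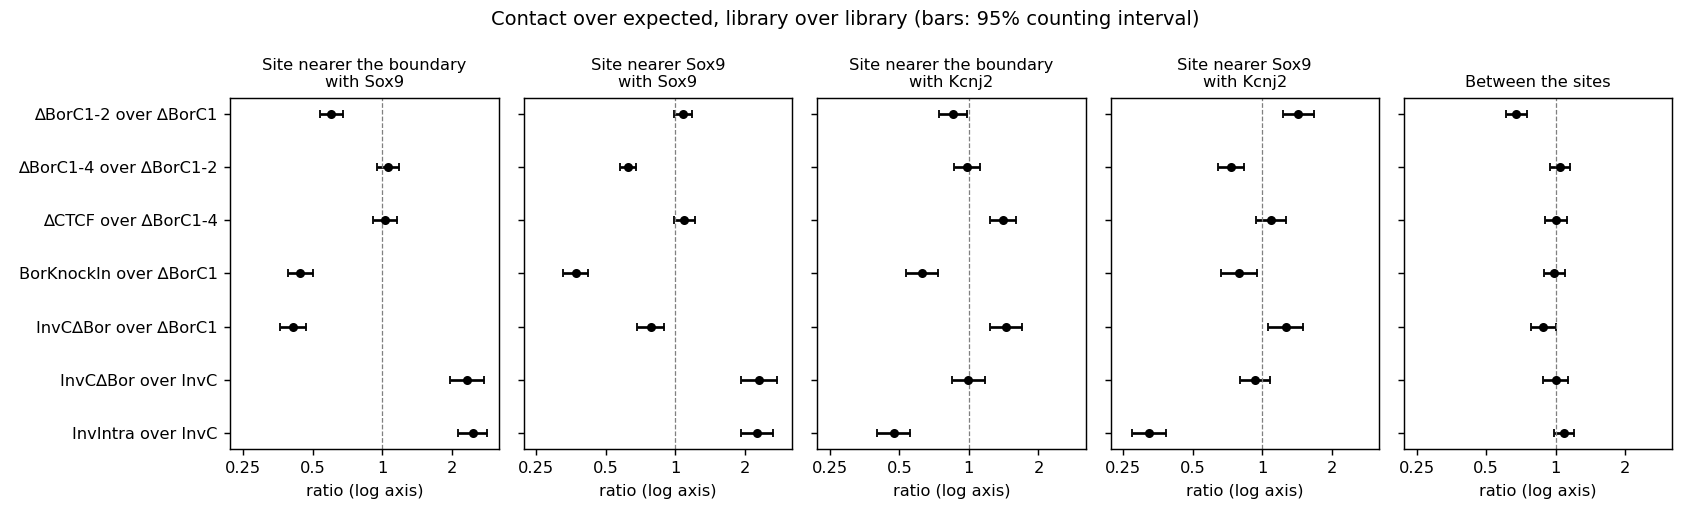
Ratio of contact over expected between libraries (horizontal log axis) for each of the 5 pairs, with 95% counting intervals and a dashed line at 1, 1 row per comparison. For the 111.76 Mb site with Sox9 the ratio is 0.604 in ∆BorC1-2 over ∆BorC1, and for the 112.06 Mb site it is 0.622 in ∆BorC1-4 over ∆BorC1-2; the InvC∆Bor over InvC row is above 2 for Sox9 and near 1 for Kcnj2.

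InvC∆Bor and InvC share the inverted desert and differ in the boundary, which in InvC stands between the sites and Sox9. Both sites had more contact with Sox9 in InvC∆Bor, and the intervals of their Kcnj2 ratios include 1. Between the 111.76 Mb site and Sox9, 319 contacts in InvC∆Bor and 234 in the deeper InvC library gave a ratio of 2.34 (1.98 to 2.77). At the 112.06 Mb site, 290 contacts in InvC∆Bor and 200 in InvC gave 2.30 (1.92 to 2.76). These were 2 of the 5 pairs, with none lower, where 7.65% of all window pairs were at least 1.5 times higher and 2.73% lower. Among the 521 pairs of the desert with the stretch from Sox9 to the edge, the median ratio was 1.53 and the 95th percentile 2.15. Those pairs include partners other than Sox9. With Sox9 alone, the median raw level of 93 desert windows was 2.04 in InvC∆Bor and 1.01 in InvC, so the higher contact was not particular to the sites. By raw level with Sox9 the 111.76 Mb site was 51st of 93 in InvC∆Bor and 62nd in InvC. The 112.06 Mb site was 5th in InvC∆Bor and 27th in InvC. With Kcnj2 the ratio was 0.996 (0.847 to 1.17) for the 111.76 Mb site and 0.928 (0.797 to 1.08) for the 112.06 Mb site. With 10 kb windows the Sox9 ratio of the 112.06 Mb site was 3.73.

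InvIntra, whose boundary stands between the sites and Kcnj2, was set against InvC, where it stands on the other side of the desert. Both sites had more contact with Sox9 and less with Kcnj2 in InvIntra. The Sox9 ratio was 2.46 (2.13 to 2.85) for the 111.76 Mb site and 2.25 (1.92 to 2.64) for the 112.06 Mb site. The Kcnj2 ratio was 0.472 (0.401 to 0.556) for the 111.76 Mb site and 0.323 (0.273 to 0.382) for the 112.06 Mb site. Of the 5 pairs 2 were at least 1.5 times higher and 2 lower, where 15.7% of all window pairs were higher and 13.1% lower. Among the 517 pairs of the desert with the stretch from Sox9 to the edge, the median ratio was 1.73 and the 95th percentile 2.25. With Sox9 alone, the median raw level of 93 desert windows was 2.10 in InvIntra and 1.01 in InvC. With Kcnj2 that median was 1.15 in InvIntra and 2.54 in InvC, so the direction of these differences was not particular to the sites. In the place at 111.31 Mb, on the Kcnj2 side of the boundary, the ratio was 0.437 for the 111.76 Mb site and 0.374 for the 112.06 Mb site.

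BorKnockIn, whose boundary stands between the sites and Sox9 with the desert uninverted, had lower Sox9 contact than ∆BorC1. By its label ∆BorC1 also lacks C1. The label of BorKnockIn says neither whether C1 is present nor whether a boundary remains at the original place. The boundary and a difference in C1 thus cannot be told apart here. The Sox9 ratio of BorKnockIn over ∆BorC1 was 0.443 (0.391 to 0.503) for the 111.76 Mb site and 0.370 (0.326 to 0.419) for the 112.06 Mb site. Among the 526 pairs of the desert with the stretch from Sox9 to the edge, the median was 0.636, with a 5th percentile of 0.417. With Sox9 alone, the median raw level of 93 desert windows was 1.40 in BorKnockIn and 2.75 in ∆BorC1. With Kcnj2 the ratio was 0.626 (0.535 to 0.733) for the 111.76 Mb site and 0.794 (0.663 to 0.950) for the 112.06 Mb site, and between the sites it was 0.986 (0.892 to 1.09). In this comparison 3 of the 5 pairs were at least 1.5 times lower and none higher, where 7.86% of all window pairs were lower and 8.69% higher. In central bins alone the Sox9 ratios were 0.259 and 0.224.

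InvC∆Bor and ∆BorC1 both lack the boundary by their labels. They differ in the order of the desert and, as labelled, in the loss of C1, which cannot be told apart here. The 111.76 Mb site, which lies 0.51 Mb from Sox9 in InvC∆Bor and 0.88 Mb in ∆BorC1, had a Sox9 ratio of 0.411 (0.361 to 0.469). This was the 1 pair of 5 past 1.5 times, where 6.59% of all window pairs were lower and 7.15% higher. The 112.06 Mb site, at 0.81 Mb in InvC∆Bor and 0.58 Mb in ∆BorC1, had 0.781 (0.683 to 0.892), but 1.16 in central bins alone. In InvC∆Bor it was 1st of 93 desert windows by KR contact with Sox9, at 2.15, and 5th by raw level. With Kcnj2 the ratios were 1.44 (1.23 to 1.70) for the 111.76 Mb site and 1.26 (1.06 to 1.499) for the 112.06 Mb site. The sites with each other had 0.882 (0.779 to 0.998), and 1.19 in central bins alone.

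The boundary was among the strongest partners of both sites in BorKnockIn and InvIntra, and less so in InvC. The boundary bin is 111390001 to 111400000 in InvIntra, where it held 28151 contacts, and was nearly empty in ∆BorC1, ∆BorC1-2, ∆BorC1-4 and ∆CTCF, with 0 to 8 contacts. It was placed at 112.49 Mb in the map of BorKnockIn, beside the lowest insulation between 111.2 and 112.6 Mb, and at 112.50 Mb in that of InvC, by the mirrored order of coverage. With the boundary, the 111.76 Mb site had a level of 4.86 in BorKnockIn (4.56 to 5.17), 4.72 in InvIntra (4.46 to 5.00) and 1.69 in InvC (1.56 to 1.83). The distances were 0.75 Mb, 0.76 Mb and 0.37 Mb. At the other site, 112.06 Mb, it was 3.52 in BorKnockIn (3.33 to 3.73), 3.10 in InvIntra (2.93 to 3.27) and 2.38 in InvC (2.17 to 2.60), at 0.45 Mb, 0.46 Mb and 0.67 Mb.

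BorKnockIn and InvIntra have in common that the boundary stands in the opposite position, relative to the sequence of the sites, to that in InvC. In BorKnockIn the desert keeps its order and the boundary is on its Sox9 end, and in InvIntra the desert is inverted and the boundary is in its original place, whereas in InvC the mirrored order takes in the boundary as well. The level of the 111.76 Mb site with the boundary was 2.87 times higher in BorKnockIn than in InvC (2.60 to 3.18) and 2.79 times higher in InvIntra than in InvC (2.53 to 3.08). For the 112.06 Mb site these ratios were 1.48 (1.33 to 1.65) and 1.30 (1.17 to 1.44). The KR levels of the 111.76 Mb site were 3.11 in BorKnockIn, 3.01 in InvIntra and 1.09 in InvC, and those of the 112.06 Mb site 2.27 in BorKnockIn, 2.08 in InvIntra and 1.62 in InvC. The orientation of the sequence inserted in BorKnockIn is not given in the labels.

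The same places without the boundary had less contact. At 112.50 Mb the 111.76 Mb site had a level of 1.69 in InvC against 0.796 in InvC∆Bor, a ratio of 2.12 (1.74 to 2.60), with the nearly empty central bin of InvC∆Bor left out. Likewise the 112.06 Mb site had 2.38 in InvC against 1.02 in InvC∆Bor, a ratio of 2.33 (1.85 to 2.94). At the matching place in ∆BorC1 the 111.76 Mb site had 2.00 and the 112.06 Mb site 1.86, so that BorKnockIn over ∆BorC1 was 2.43 (2.15 to 2.74) and 1.90 (1.71 to 2.10). In that comparison too the boundary cannot be told apart from the loss of C1 in ∆BorC1. In KR values by single bins, the 111.76 Mb site reached 4.00 at the boundary bin in BorKnockIn and 4.08 in InvIntra, against 1.03 in InvC. In InvC, where the place of the boundary was found by mirroring, the bin 10 kb to the left was higher. It had 1.55 with the 111.76 Mb site and 2.25 with the 112.06 Mb site. Beyond the boundary as seen from the 111.76 Mb site, contact was lower within 20 kb: the bin 20 kb past the boundary had 1.71 in BorKnockIn.

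**Figure D5:**
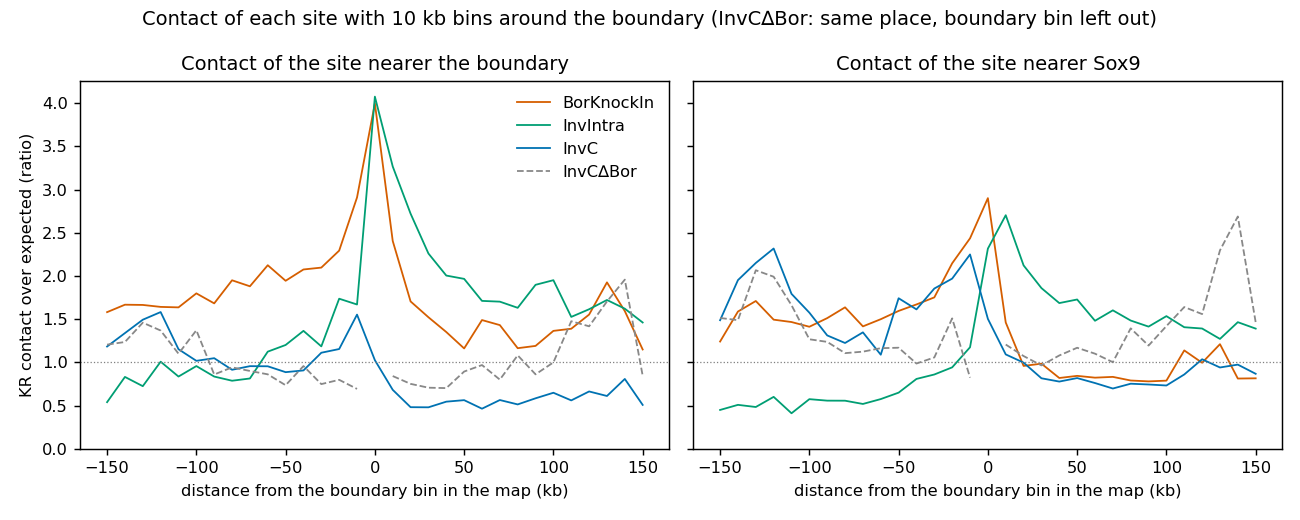
KR contact over expected (a ratio, vertical axis) of each site with 10 kb bins by distance in kb from the boundary bin in BorKnockIn, InvIntra and InvC, and at the same place as in InvC in InvC∆Bor, where the nearly empty bin is left out. For the 111.76 Mb site (left) the BorKnockIn and InvIntra lines peak at the boundary, at 4.00 and 4.08. The InvC line has 1.03 there and 1.55 at the bin 10 kb to the left. For the 112.06 Mb site (right) the values at the boundary bin are 2.90 in BorKnockIn, 2.32 in InvIntra and 1.504 in InvC. Beside that bin, InvIntra has 2.70 at 10 kb to the right and InvC 2.25 at 10 kb to the left.

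Of all windows at least 200 kb away with at least 100 contacts, a region left of Kcnj2 was the most frequent leader. Windows starting at 110.34 to 110.38 Mb were the highest for the 111.76 Mb site in 5 of 8 libraries and for the 112.06 Mb site in 7 of 8. In the other libraries the 111.76 Mb site was led by the boundary in BorKnockIn and InvIntra and by the window 112620001 to 112650000, which holds the Sox9 bin, in ∆BorC1, and the 112.06 Mb site by the boundary in InvIntra. With the window 110370001 to 110400000 the 111.76 Mb site had a level of 4.10 in BorKnockIn, 5.92 in InvC∆Bor, 3.83 in InvIntra, 7.29 in InvC, 4.51 in ∆BorC1, 4.55 in ∆BorC1-2 and 3.87 in ∆BorC1-4, with ∆CTCF at 4.21. That of the 112.06 Mb site was 4.15 in BorKnockIn, 4.61 in InvC∆Bor, 2.70 in InvIntra, 5.57 in InvC, 3.98 in ∆BorC1, 4.77 in ∆BorC1-2 and 3.56 in ∆BorC1-4, with ∆CTCF at 3.86. Both sites were highest there in InvC and lowest in InvIntra. The KR levels ran from 2.66 to 5.15 for the 111.76 Mb site and from 2.00 to 4.19 for the 112.06 Mb site, and the window drew 1.30 to 1.46 times the contacts of a median bin.

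Among the highest windows near Sox9, the one starting at 112.62 Mb holds the gene's bin and the one starting at 112.61 Mb ends just before it. The 111.76 Mb site had 5.01 with the window at 112.62 Mb in ∆BorC1 and 3.12 in ∆BorC1-2, and 3.58 in ∆BorC1-4 and 3.31 in ∆CTCF with that at 112.61 Mb. The 112.06 Mb site had 3.89 in ∆BorC1 and 4.19 in ∆BorC1-2 with the window at 112.62 Mb, and 3.03 in ∆BorC1-4 and 3.10 in ∆CTCF with that at 112.61 Mb. The window at 113.00 Mb, just inside the far edge, was among the 5 highest of the 111.76 Mb site in ∆BorC1, at 4.97, and in ∆BorC1-4, at 3.10. In BorKnockIn the overlapping window at 112.99 Mb was among those of this site, at 3.55. In ∆CTCF the overlapping window at 113.01 Mb was too, at 2.99. The window at 113.00 Mb was among those of the 112.06 Mb site in InvIntra, at 3.47, in ∆BorC1, at 3.12, and in ∆BorC1-2, at 3.57.

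How each site divided its contacts over the locus also differed between libraries, though not always in the order of the Sox9 levels. Of the contacts of the 111.76 Mb site, 8.09% fell between the far end of the inversion and the far edge of the Sox9 domain in BorKnockIn, 10.5% in InvC∆Bor, 12.48% in InvIntra, 6.58% in InvC, 13.99% in ∆BorC1, 10.3% in ∆BorC1-2 and 11.1% in ∆BorC1-4, with ∆CTCF at 10.3%. For the 112.06 Mb site these shares were 8.16% in BorKnockIn, 9.00% in InvC∆Bor, 11.2% in InvIntra, 5.75% in InvC, 16.4% in ∆BorC1, 15.4% in ∆BorC1-2 and 12.9% in ∆BorC1-4, with ∆CTCF at 12.7%. The intervals of the shares of ∆BorC1-2 and ∆BorC1 do not overlap for either site, nor do those of ∆BorC1-4 and ∆BorC1-2. The share between Kcnj2 and the original boundary was lowest in InvIntra, at 5.32% for the 111.76 Mb site and 4.96% for the 112.06 Mb site. At the 111.76 Mb site it was 6.34% in BorKnockIn and 9.30% in InvC, and for the 112.06 Mb site 5.49% in BorKnockIn and 10.95% in InvC. A share depends on how far the interval lies from the site in each map, so the rearranged libraries differ in it by distance as well.

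Close to the sites the sides were nearly even. Of the contacts of the 111.76 Mb site from 30 to 400 kb away, 54.1% lay on its Sox9 side in ∆BorC1, 51.0% in ∆BorC1-2 and 50.8% in ∆BorC1-4, with ∆CTCF at 50.5%. By KR values these were 51.4% in ∆BorC1, 48.2% in ∆BorC1-2 and 47.9% in ∆BorC1-4, with ∆CTCF at 48.2%, so the majority changes side with the balancing after the first library. Of those of the 112.06 Mb site, 51.8% lay on the Sox9 side in ∆BorC1, 52.9% in ∆BorC1-2 and 51.9% in ∆BorC1-4, with ∆CTCF at 53.0%. Read in the order of the sequence and not of the map, the rearranged libraries had 53.0% in BorKnockIn, 52.0% in InvC∆Bor, 52.4% in InvIntra and 51.5% in InvC for the 111.76 Mb site. By KR values these were 50.5% in BorKnockIn, 49.3% in InvC∆Bor, 49.3% in InvIntra and 49.2% in InvC, so the majority changes side in 3 of the 4.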

How the data were processed

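The authors deposited raw counts, the number of read pairs that join each 2 bins of 10 kb. The KR (Knight-Ruiz balanced) values are a signal that the authors deposited for the same bins; it is not scaled between libraries. Bowtie2 2.2.6, Juicer and the build mm9 are named in the submitters' processing notes, and how reads were filtered is not given in the sources used. Depth was 3056502 to 9045698 raw contacts per library.

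Bins under 0.05 of a library's median coverage were left out (1 or 2 per library), as were pairs under 20 kb apart. Expected contact is the library's mean at each distance over the whole map. Matching sequence was found by mirroring (InvC, InvC∆Bor, InvIntra) or shifting (BorKnockIn). Coverage over 95 bins then correlated with that of the deletion libraries at r of 0.850 to 0.907, against -0.0324 to 0.0904 at the same position; bins are not independent. Distances are those of the deposited maps, also where sequence is missing. The regions named were Sox9, Kcnj2, the boundary, the 111.31 and 113.03 Mb places and the 5 highest windows of each site and library. The background was all 30 kb window pairs 200 kb to 2 Mb apart with at least 20 contacts in the libraries compared.

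The sites, partners and comparisons were chosen with earlier results of these data known. Calculations used Python 3.11.15, numpy 2.4.6, scipy 1.17.1 and matplotlib 3.10.9, and were tested on simulated maps. Alternatives were KR values, windows of 10 and 50 kb, expected contact from Kcnj2 to the far edge, thinned depth (2 random draws), pairs beyond 100 kb for shares, and site windows moved by 10 kb.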

Additional observations from a re-analysis of the deposited data

How the results depend on the processing

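Of 280 recomputed ratios, 240 stayed within the counting interval of the value reported, 37 moved outside it and 3 changed direction. KR values kept all 35 ratios within it. The cause of a change was not tested.

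Windows of 10 kb changed most. For the 111.76 Mb site with Sox9 they gave 0.435 (∆BorC1-2 over ∆BorC1), 0.906 (∆BorC1-4 over ∆BorC1-2), 0.776 (∆CTCF over ∆BorC1-4), 0.259 (BorKnockIn over ∆BorC1), 0.266 (InvC∆Bor over ∆BorC1) and 2.98 (InvIntra over InvC). For the 112.06 Mb site with Sox9 they gave 1.60 (∆BorC1-2 over ∆BorC1), 0.496 (∆BorC1-4 over ∆BorC1-2), 0.224 (BorKnockIn over ∆BorC1), 3.73 (InvC∆Bor over InvC), 2.96 (InvIntra over InvC) and, reversed, 1.16 (InvC∆Bor over ∆BorC1). With Kcnj2 the 111.76 Mb site had 1.02 (∆CTCF over ∆BorC1-4), 1.74 (InvC∆Bor over ∆BorC1), 0.795 (InvC∆Bor over InvC) and 0.395 (InvIntra over InvC), and the 112.06 Mb site 1.18 (∆BorC1-2 over ∆BorC1). Between the sites they gave 0.468, 1.18 and 1.27 for the 3 steps of the deletion series, 1.31 (InvC∆Bor over InvC) and, reversed, 1.19 (InvC∆Bor over ∆BorC1).

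Windows of 50 kb gave 0.677 for the 111.76 Mb site with Sox9 and 0.753 between the sites (∆BorC1-2 over ∆BorC1), and 0.733 for the 112.06 Mb site with Sox9 (∆BorC1-4 over ∆BorC1-2). With expected contact taken from Kcnj2 to the far edge, Sox9 ratios of BorKnockIn over ∆BorC1 were 0.504 for the 111.76 Mb site and 0.422 for the 112.06 Mb site, that of InvC∆Bor over ∆BorC1 was 0.558 for the 111.76 Mb site, and its Kcnj2 ratio of InvIntra over InvC was 0.378. Thinning to the shallowest library gave 0.387 for the 111.76 Mb site with Sox9 in BorKnockIn over ∆BorC1. That is a single random draw; a second one, added after the data were seen, kept this ratio within its interval and gave 0.954 for the same pair in ∆BorC1-4 over ∆BorC1-2.

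Site windows moved by 10 kb were added after the data were seen. To the left they gave Sox9 ratios of 0.357 (111.76 Mb site, InvC∆Bor over ∆BorC1), 0.739 (112.06 Mb site, ∆BorC1-4 over ∆BorC1-2) and 0.427 (112.06 Mb site, BorKnockIn over ∆BorC1), a Kcnj2 ratio of 0.660 (112.06 Mb site, BorKnockIn over ∆BorC1), and between the sites 0.814 (∆BorC1-2 over ∆BorC1) and 1.14 (BorKnockIn over ∆BorC1). To the right, InvC∆Bor over ∆BorC1 was 0.531 for the 111.76 Mb site with Sox9, 1.85 with Kcnj2 and, reversed, 1.12 between the sites. The move was made in each library's own map, so in the inverted libraries it ran the other way along the sequence. The moved ratios of InvC∆Bor over ∆BorC1, 0.357 to the left included, therefore compare windows that are not of matched sequence.

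Levels depend on the processing more than ratios do. Of 320 recomputed levels 170 stayed within their counting interval, 134 moved outside it and 16 that were above 1 came out below 1. None of 40 stayed within it by KR values, which gave 0.627 to 0.785 times the level reported, or with expected contact from Kcnj2 to the edge, which gave 0.486 to 0.822 times. Moves of over 1.5 times numbered 11 by KR values, 23 with that expected contact and 15 with 10 kb windows, and 0 under the other settings. The 16 were the 112.06 Mb site with Sox9 in BorKnockIn (KR 0.950, 10 kb 0.349) and in InvC (KR 0.928, 10 kb 0.484, expected to the edge 0.821), the 111.76 Mb site with Kcnj2 in BorKnockIn (KR 0.919, expected to the edge 0.972) and in InvIntra (expected to the edge 0.778), and the sites with each other in ∆BorC1-2 (KR 0.825, 10 kb 0.618, expected to the edge 0.989), ∆BorC1-4 (KR 0.896, 10 kb 0.727) and ∆CTCF (KR 0.908, 10 kb 0.926, moved right 0.986). Of the 32 recomputed shares 30 moved outside their counting interval, since both alternatives change which contacts are counted.

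No paired analysis was possible because each genotype has 1 library and the labels carry no replicate numbers. Pairs with few contacts, such as those of InvC with Sox9 (200 and 234), have wide relative counting intervals.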

Other observations

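A place in the desert between the boundary and the 111.76 Mb site, not among the regions described above, was the leading desert partner of the gene that lay across from it in the rearranged libraries. Of 93 desert windows, the one centred on the bin at 111.51 Mb (in the uninverted order) had the highest KR contact with Kcnj2 in InvC∆Bor, at 4.35 times the expected, in InvIntra, at 2.21, and in InvC, at 4.71. In BorKnockIn it had the highest KR contact with Sox9, at 3.61. In the same libraries the 111.76 Mb site had KR levels with Kcnj2 of 2.23 in InvC∆Bor, 1.08 in InvIntra and 2.40 in InvC, and with Sox9 of 1.56 in BorKnockIn. This place was picked after its values were seen.

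In InvIntra and InvC the highest Sox9 partner of the desert was at 112.38 and 112.37 Mb in the uninverted order, with KR levels of 2.60 in InvIntra and 1.33 in InvC. In BorKnockIn and ∆CTCF the highest Kcnj2 partner was close by, at 112.38 Mb with 1.505 in BorKnockIn and at 112.39 Mb with 2.62 in ∆CTCF. In InvC∆Bor the leading Sox9 partner by KR level was instead the 112.06 Mb site, which was 5th by raw level.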
